A study of Homo sapiens with 90 samples.

Results

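Fenbuconazole at 1 and 3 µM was compared with its vehicle in HepG2 cells, a widely used line from a human liver tumour, by the 6 arrays titled with those doses (3 per dose, pooled and separately) against the 3 DMSO arrays normalized together with the fenbuconazole samples. These 9 arrays were chosen by their titles from 90 deposited columns. Fenbuconazole is an agricultural azole fungicide made to inhibit the fungal sterol demethylase. Cells were exposed for 24 h, and every group, the controls included, carried 0.2% DMSO. The wider dose series, imazalil and 2,4-D were used only to place these 2 doses: 3 arrays at 10 µM, 9 arrays at 0.001, 0.003 and 0.01 µM, and 6 arrays at 1 and 3 µM for each of the other two compounds. The cultures are 1 tumour line in 1 laboratory's plates, and nothing in the labels says whether the 3 replicates came from separate cultures. The paper on the same compounds and arrays reports 3 biological replicates from separate cell batches for HepaRG, MCF7 and A673 cells, and does not name HepG2. The p values here therefore measure the spread between these arrays, which may be technical.

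Cholesterol is built from acetyl-CoA through mevalonate, farnesyl diphosphate, squalene and lanosterol. The enzyme CYP51A1, the human counterpart of the fungal target of azoles, removes a methyl group from lanosterol. The genes of the pathway are switched on together by the transcription factor SREBP2 when sterol in the endoplasmic reticulum falls. CYP1A1, a cytochrome P450 that oxidizes aromatic compounds, is the classical target of the aryl hydrocarbon receptor (AHR), and CYP3A4 and CYP2B6 are the usual targets of the receptors PXR and CAR in liver.

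The cells had the marker signals of liver cells, though these markers cannot tell HepG2 from another liver line. The 9 hepatocyte markers measured had mean RMA log2 signals of 10.07 to 13.07 in DMSO, albumin and alpha-fetoprotein among them. Of 7 mesenchymal markers 5 lay under a log2 signal of 4 in DMSO, as did 7 of 8 blood and endothelial markers, and the exceptions were COL1A1 and ACTA2 in the first list and LYZ in the second. The log2 of the summed signal of each list was 15.55 to 15.65 in DMSO and 15.51 to 15.65 at 1 and 3 µM for hepatocyte markers, 8.36 to 8.51 and 8.14 to 8.36 for mesenchymal markers, and 10.74 to 11.21 and 10.78 to 11.46 for blood and endothelial markers. Array medians lay between 2.97 and 3.05. The interquartile range of an array's values was 2.94 to 3.10 in DMSO, 2.89 to 3.08 at 1 µM and 2.95 to 3.04 at 3 µM, and the 3' minus 5' signal of GAPDH was −0.104 to −0.06, −0.136 to −0.109 and −0.119 to −0.077 in the same order. Less RNA per cell and fewer cells cannot be told apart in such samples.

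No gene passed the threshold (limma, Benjamini-Hochberg adjusted p under 0.05) at these doses. Of 19774 genes, 0 were called with both doses pooled (0.0%), 0 at 1 µM (0.0%), 0 at 3 µM (0.0%) and 0 for 3 µM against 1 µM (0.0%), and the lowest adjusted p in each of these comparisons rounded to 1. Against the 9 arrays of the 3 lowest doses 0 were called as well (0.0%), with a lowest adjusted p of 0.554. At an unadjusted p under 0.05 there were 226 genes higher (1.14%) and 428 lower (2.16%) with the doses pooled, 251 higher (1.27%) and 508 lower (2.57%) at 1 µM, and 190 higher (0.961%) and 337 lower (1.7%) at 3 µM. If no gene differed, a share of 0.05 of the genes, higher and lower together, would be expected at such a p. Each of these comparisons with DMSO lay below that share. The shift was small across the transcriptome. The 95% interval of the pooled log2 difference reached 0.21 to either side for the median gene, and only 3 genes differed from DMSO by 0.5 or more: CYP1A1, EIF5A2 (0.51, a translation factor of the eIF5A family) and PLA2G4F (−0.56, a phospholipase A2), the latter pair chosen for naming after their values were seen. All values below with an unadjusted p are therefore differences that did not pass the test over all genes.

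Genes of sterol synthesis were above DMSO together. Of the 20 genes listed, 17 were measured, and 16 of them had a higher mean than DMSO at 1 and 3 µM, against 44.4% of all genes. Their median log2 difference was 0.13 with the doses pooled, 0.10 at 1 µM and 0.18 at 3 µM, beside −0.012, −0.012 and −0.010 for all genes. With the doses pooled 7 of the 17 were higher at an unadjusted p under 0.05, and at 1 µM and 3 µM alone 2 and 8 were. None of the 17 was lower at that p in any of these comparisons, and 0 passed the threshold. The list was chosen with earlier results of these data known, so these counts are a description.

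HMGCS1 (Entrez gene 3157), the cytosolic synthase that makes HMG-CoA, had the largest difference of the sterol genes with the doses pooled, followed by MVD at 0.31 and NSDHL at 0.26, while at 3 µM MVD (0.45) and HMGCS1 (0.44) were level. Its log2 signal was 8.56, 8.40 and 8.51 in DMSO, 8.85, 8.71 and 8.82 at 1 µM, and 8.96, 8.98 and 8.87 at 3 µM. Every treated array lay above every DMSO array, and the 3 µM arrays lay above the 1 µM arrays. The pooled difference was 0.37 ± 0.088 (SE; 95% interval 0.19 to 0.55), which is 1.29-fold (1.14 to 1.47) (limma, adjusted p = 1). It was 0.30 at 1 µM and 0.44 at 3 µM, and the 95% interval of the difference of 0.14 between the doses was −0.069 to 0.35. A second probe set of HMGCS1 gave 0.43 ± 0.12.

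NSDHL (Entrez gene 50814), which removes a carboxyl group from the sterol ring after demethylation, also had every treated array above DMSO. Its log2 signal was 6.95, 7.0 and 7.08 in DMSO, 7.10, 7.27 and 7.32 at 1 µM, and 7.36, 7.19 and 7.37 at 3 µM. The groups did not overlap, though the lowest 1 µM array was close to the highest DMSO array. The pooled difference was 0.26 ± 0.075 (95% interval 0.10 to 0.41), and it was 0.13 ± 0.09 by another probe set.

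MVD (Entrez gene 4597), which decarboxylates mevalonate diphosphate, separated the 2 doses most among the 17. Its log2 signal was 5.68, 5.56 and 5.61 in DMSO, 5.77, 5.94 and 5.63 at 1 µM, and 6.13, 6.03 and 6.04 at 3 µM. The 1 µM arrays overlapped DMSO, and the 3 µM arrays lay above both groups. The log2 difference from DMSO was 0.16 at 1 µM and 0.45 at 3 µM. The difference between the doses was 0.29 (95% interval 0.044 to 0.53), and it did not pass over all genes, of which 307 were higher (1.55%) and 281 lower (1.42%) at 3 than at 1 µM at an unadjusted p under 0.05. Of the 17 sterol genes, 13 were higher at 3 than at 1 µM, against 50.8% of all genes, and MVD was the 1 with an unadjusted p under 0.05.

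**Figure D1:**
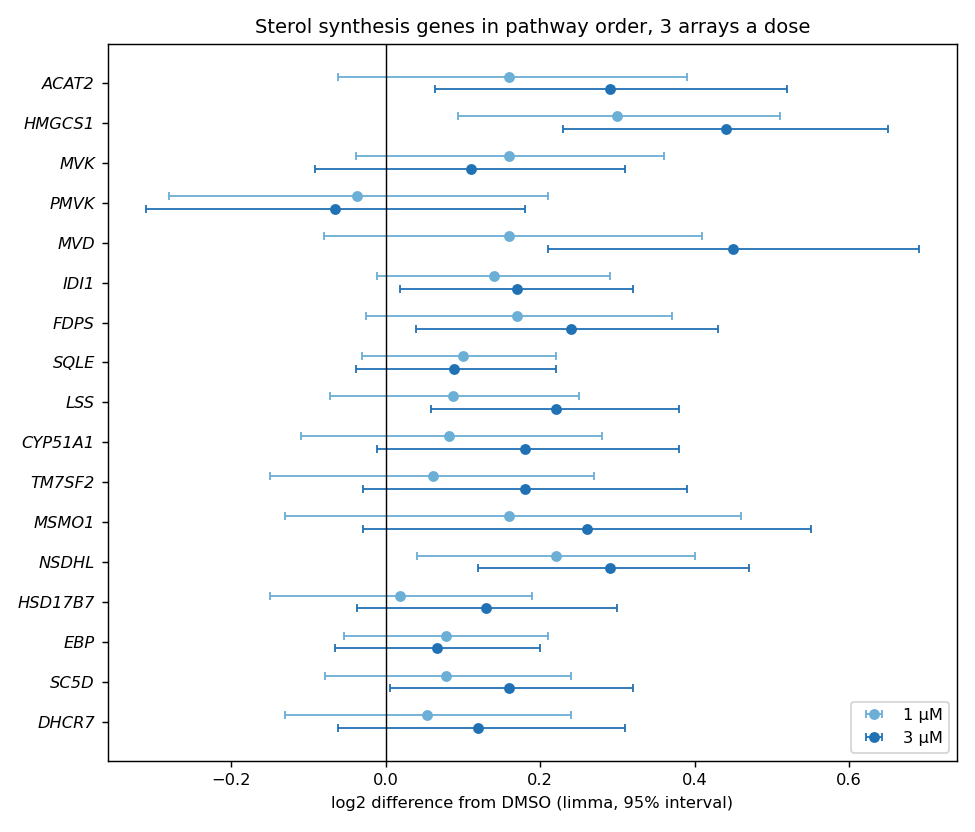
Log2 difference from DMSO of the 17 sterol synthesis genes measured, in pathway order from top to bottom, at 1 µM and 3 µM (points, 3 arrays each; bars, 95% intervals of the limma fit). Every gene but PMVK lies to the right of 0 at both doses, and the intervals leave out 0 for 2 genes at 1 µM and for 8 at 3 µM.

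The other genes of the mevalonate steps, early in the pathway, were mostly above DMSO. IDI1, which isomerizes isopentenyl diphosphate, had values of 10.13, 10.17 and 10.09 in DMSO, 10.29, 10.34 and 10.18 at 1 µM and 10.36, 10.34 and 10.20 at 3 µM. Its groups did not overlap, and its pooled difference was 0.16 (95% interval 0.024 to 0.29). The other probe sets of IDI1 gave 0.13, 0.049 and −0.27, so this gene's direction differed between its probe sets. ACAT2, which joins 2 acetyl-CoA molecules, differed by 0.23 (95% interval 0.031 to 0.42), and FDPS, the farnesyl diphosphate synthase, by 0.20 (95% interval 0.033 to 0.38). In both, the highest DMSO array overlapped the treated arrays. MVK was at 0.13, and PMVK, the kinase after it, was the 1 gene below DMSO, at −0.051.

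From squalene onwards the differences ran from 0.073 for EBP to 0.26 for NSDHL. LSS, which closes squalene epoxide to lanosterol, differed by 0.15 (95% interval 0.014 to 0.29), with 0.41 and 0.36 by its other probe sets. CYP51A1, the target enzyme, was at 0.082 at 1 µM (95% interval −0.11 to 0.28) and 0.18 at 3 µM (95% interval −0.011 to 0.38). Its values of 9.72, 9.77 and 9.51 in DMSO overlapped the 9.86, 9.75 and 9.63 at 1 µM and the 9.77, 9.99 and 9.78 at 3 µM. With the doses pooled CYP51A1 was at 0.13, and its other probe set gave 0.38 ± 0.29. MSMO1, the next sterol oxidase, was at 0.21, SC5D at 0.12, TM7SF2 at 0.12, SQLE at 0.093, DHCR7 at 0.089, HSD17B7 at 0.075 and EBP at 0.073, with the unadjusted p of each above 0.05. The other probe sets of EBP gave 0.16 and 0.28. ERG28 (Entrez gene 11161), a scaffold protein of sterol demethylation that was not on the list, was named for non-overlapping groups: 9.07, 8.95 and 8.96 in DMSO, 9.08, 9.15 and 9.13 at 1 µM, and 9.22, 9.15 and 9.30 at 3 µM. Its pooled difference was 0.18 (95% interval 0.035 to 0.32), and its other probe sets gave 0.15 and 0.012.

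As a mean over the 17 genes, relative to the mean of DMSO, the 3 DMSO arrays stood at 0.035, 0.0086 and −0.044. The 1 µM arrays stood at 0.12, 0.15 and 0.085, and the 3 µM arrays at 0.20, 0.20 and 0.18. The arrays of the 3 groups were ordered by dose with no overlap, and the arrays at 10 µM followed at 0.28, 0.31 and 0.22. The lowest sterol mean among the treated arrays, at 1 µM replicate 3, was in the array with the lowest interquartile range, 2.89, and the lowest among the DMSO arrays was in an array near the middle, 3.01. With the interquartile range as a covariate the median over the list was 0.13 again.

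The 250 bases before the gene start are shown for HMGCS1, NSDHL and ERG28, the sterol genes whose groups did not overlap other than IDI1, and for CYP1A1, the gene with the largest rise. They are from RefSeq on GRCh38.p14, 5′ to 3′ on the gene's strand, at chr5:43313413-43313662 (minus strand), chrX:152830813-152831062 (plus strand), chr14:75660877-75661126 (minus strand) and chr15:74725529-74725778 (minus strand). Capitals mark CCAAT or its reverse complement ATTGG in the sterol genes, and GCGTG, the core that AHR binds, in CYP1A1, each on either strand. Matches left in lower case are 2 of CCAAT in CYP1A1, and 3 of GCGTG in NSDHL and 1 in ERG28.
HMGCS1: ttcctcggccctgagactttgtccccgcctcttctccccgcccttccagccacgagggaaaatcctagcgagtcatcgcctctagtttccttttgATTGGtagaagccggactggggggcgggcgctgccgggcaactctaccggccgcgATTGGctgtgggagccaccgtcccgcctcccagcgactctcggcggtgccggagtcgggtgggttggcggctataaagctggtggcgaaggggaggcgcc
NSDHL: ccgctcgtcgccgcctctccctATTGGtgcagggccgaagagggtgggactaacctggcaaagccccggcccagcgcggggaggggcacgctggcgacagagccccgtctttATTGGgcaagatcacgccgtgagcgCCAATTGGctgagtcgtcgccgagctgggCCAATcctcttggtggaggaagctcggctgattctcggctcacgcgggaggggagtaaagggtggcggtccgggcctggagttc
ERG28: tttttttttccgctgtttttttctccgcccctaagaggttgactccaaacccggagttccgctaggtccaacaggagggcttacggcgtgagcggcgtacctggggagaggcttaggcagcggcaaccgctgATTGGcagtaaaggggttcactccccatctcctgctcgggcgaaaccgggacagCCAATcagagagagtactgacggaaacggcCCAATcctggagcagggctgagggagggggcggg
CYP1A1: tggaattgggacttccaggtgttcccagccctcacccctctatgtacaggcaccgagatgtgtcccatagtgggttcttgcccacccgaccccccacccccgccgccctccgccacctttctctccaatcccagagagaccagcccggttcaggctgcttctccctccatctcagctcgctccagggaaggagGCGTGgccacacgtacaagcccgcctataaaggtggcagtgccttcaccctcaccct

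HMGCS1 held 2 CCAAT boxes, which started 155 and 100 bases before the gene start, NSDHL held 5 (228, 138, 113, 110 and 84 bases before), of which the third and the fourth overlap, and ERG28 held 3 (118, 64 and 34 bases before). In windows of 300 bases, 1 per gene, that run from 250 before to 50 after the start, CCAAT was found on either strand in 12 of the 15 sterol list genes with an entry, and in 35.7% of 27305 genes. It occurred at least 2 times in 9 of the 15 and in 11.3% of all. The sterol element letters TCACNCCAC were found in 0 of the 15 windows and in 1.15% of all, which says only that these letters were not in these windows. CACGTG was found in 2 of the 15 and in 7.43% of all. GCGTG was in 12 of the 15 as well, and in 36.3% of all, and CYP1A1 had 1 match, 57 bases before its start.

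CYP1A1 (Entrez gene 1543) was higher by more than any other gene named here. Its log2 signal was 4.30, 4.85 and 4.67 in DMSO, 4.78, 4.85 and 5.53 at 1 µM, and 5.20, 5.51 and 5.63 at 3 µM. The 1 µM arrays overlapped DMSO, with 2 of them level with it, and the 3 µM arrays lay above all DMSO arrays. The pooled difference was 0.64 ± 0.19 (SE; 95% interval 0.26 to 1.03), or 1.56-fold (1.20 to 2.04) (limma, adjusted p = 1). It was 0.45 (1.36-fold, 1.00 to 1.85) at 1 µM and 0.84 (1.79-fold, 1.32 to 2.43) at 3 µM. The increase of 0.39 from 1 to 3 µM had an interval of −0.05 to 0.83 and was not separated from the spread between arrays. The DMSO array with the lowest CYP1A1 value had the largest interquartile range of the 9 arrays (3.10), and the 1 µM array with the highest value had the smallest (2.89). With the interquartile range as a covariate the pooled difference was 0.63, and its part in the result was not tested further.

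**Figure D2:**
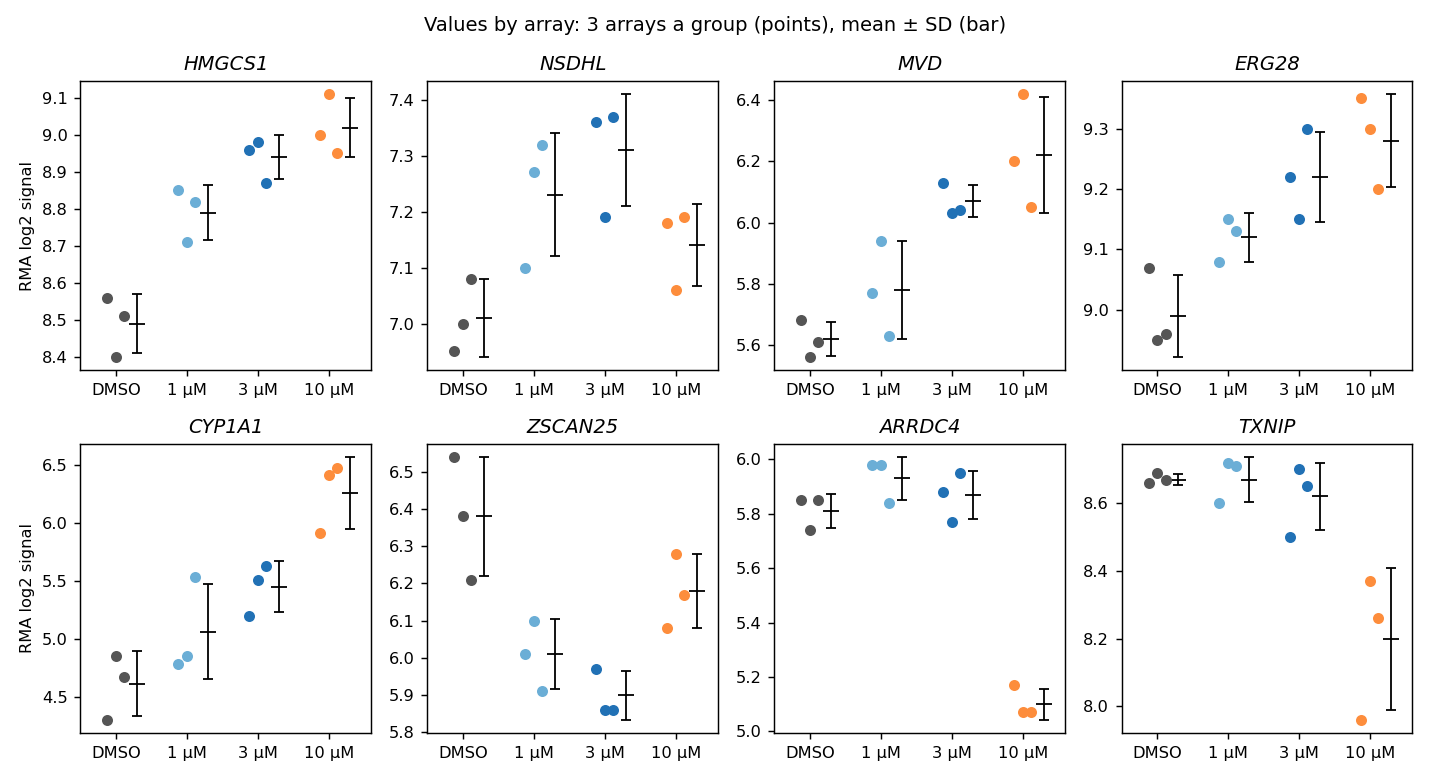
RMA log2 signal of 8 genes in each array of DMSO and fenbuconazole at 1, 3 and 10 µM (points, 3 arrays a group; bars, mean ± SD). The 6 arrays at 1 and 3 µM lie above all DMSO arrays for HMGCS1, NSDHL and ERG28 and below them for ZSCAN25, overlap DMSO for MVD and CYP1A1 at 1 µM, and stay near DMSO for ARRDC4 and TXNIP, which are lower at 10 µM.

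The other AHR targets showed no common direction. The list had 10 genes, 5 above DMSO, with a median of −0.012, the same as for all genes, and CYP1A1 was the 1 member with an unadjusted p under 0.05. CYP1A2, the liver relative of CYP1A1, was at 0.12. CYP1B1 was at 0.025, TIPARP, a poly-ADP-ribose polymerase induced through AHR, at −0.027, and NQO1, a quinone reductase, at 0.0034. UGT1A6, a glucuronosyltransferase, was the 1 member with non-overlapping groups, lower by 0.26 on the log2 scale at a dim mean signal of 2.87. Of the 10 genes 6 had a mean log2 signal under 4.

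Targets of PXR and CAR gave no such values. Of 19 genes 15 were measured, 9 were above DMSO, and the median was 0.030, with 0 genes at an unadjusted p under 0.05 in either direction. CYP3A4 had 3.84, 3.97 and 3.96 in DMSO, 3.89, 3.83 and 3.89 at 1 µM and 3.96, 3.93 and 3.70 at 3 µM, a pooled difference of −0.057 (interval −0.21 to 0.093). CYP2B6 was at 0.030 (interval −0.25 to 0.31). Both had mean signals under 4. ABCC3, an efflux pump, had the smallest p of the list (−0.12, 95% interval −0.28 to 0.039). Its other probe sets gave −0.13, 0.16, 0.035, −0.1 and 0.002. Among 9 receptors and partners measured, 2 were above DMSO, and PPARA had the smallest p (−0.14, 95% interval −0.38 to 0.092).

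Lipid lists next to sterol synthesis differed among themselves. In fatty acid and triglyceride synthesis 14 of 17 genes were above DMSO, with a median of 0.083. ACLY, which makes cytosolic acetyl-CoA from citrate, was the 1 gene of the list with an unadjusted p under 0.05 (0.11, 95% interval 0.0052 to 0.22). Its values were 10.82, 10.82 and 10.72 in DMSO, 10.89, 10.93 and 10.92 at 1 µM and 10.89, 10.87 and 10.90 at 3 µM, so its groups did not overlap. In sterol sensing and uptake 8 of 10 genes were measured, 3 were above DMSO, and the median was −0.0029. STARD4, a sterol carrier protein, led that list with 0.079 at 1 µM and 0.27 at 3 µM (95% interval 0.037 to 0.49 at 3 µM). With the doses pooled STARD4 was at 0.17, and no gene of the list had an unadjusted p under 0.05. Among apolipoproteins 5 of 11 were above DMSO (median −0.0078), with APOA2 at 0.059. Of 12 genes of LXR, FXR and bile acids 6 were above (median 0.0042), with the bile acid exporter subunit SLC51B at 0.15 (95% interval −0.057 to 0.36). Of 10 PPARA targets 4 were above (median −0.030), with the fatty acid binding protein FABP1 at 0.16 (95% interval −0.076 to 0.39) and PDK4, a brake on pyruvate oxidation, at −0.004.

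**Figure D3:**
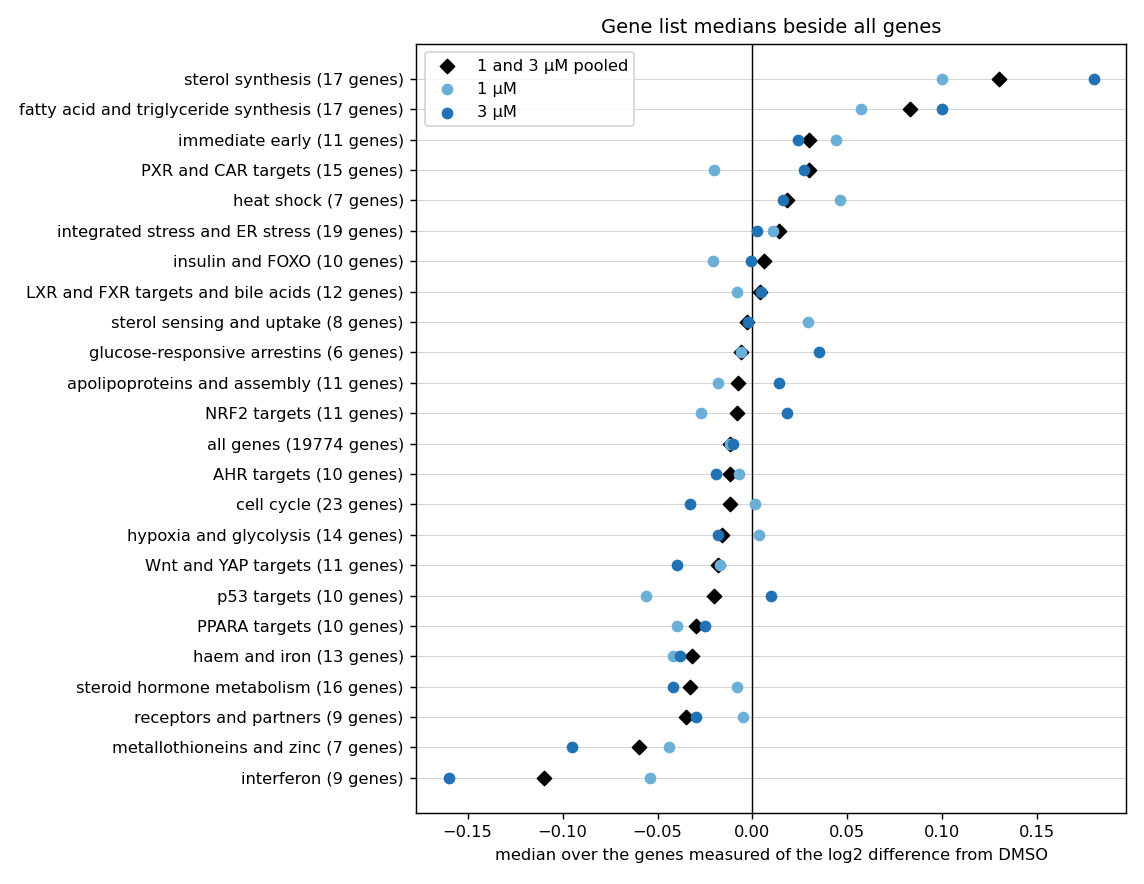
Median log2 difference from DMSO over the genes measured in each of 23 gene lists and over all 19774 genes, for 1 and 3 µM pooled (diamonds), 1 µM and 3 µM (circles). Sterol synthesis has the highest pooled median, 0.13, and is followed by fatty acid and triglyceride synthesis at 0.083, while interferon is lowest at −0.11 and all genes stand at −0.012.

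Stress lists had medians between −0.060 and 0.018. Of 11 NRF2 targets 5 were above DMSO (median −0.0081), and HMOX1, the haem-degrading enzyme, was at −0.061 (95% interval −0.20 to 0.079). Of 19 genes of integrated stress and ER stress 10 were above (median 0.014), with the pseudokinase TRIB3 at 0.17 (95% interval 0.025 to 0.31). TRIB3 had 8.54, 8.49 and 8.38 in DMSO, 8.61, 8.60 and 8.71 at 1 µM, and 8.65, 8.54 and 8.71 at 3 µM. In the heat shock list 6 of 7 genes were above DMSO (median 0.018), and HSPB1, the smallest p, was at 0.088. Of 10 p53 targets 5 were above (median −0.020), with BBC3, an apoptosis inducer, at −0.15 (95% interval −0.36 to 0.059). The 7 metallothionein and zinc genes were all below DMSO, with a median of −0.060, and the 1 at an unadjusted p under 0.05, MT1M (−0.25, 95% interval −0.48 to −0.028), had a mean signal of 2.47. Against the 6 doses under 1 µM in place of DMSO, MT1M differed by −0.01. Of 13 haem and iron genes 4 were above (median −0.032), with UROS at −0.11.

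Growth, hormone and signalling lists had medians between −0.033 and 0.030, and interferon stood at −0.11. Of 23 cell cycle genes 9 were above DMSO (median −0.012), with CDC20, an activator of the anaphase complex, at −0.11 (95% interval −0.25 to 0.037). Of 14 hypoxia and glycolysis genes 6 were above (median −0.016). The stress gene NDRG1 was lower with no overlap: 7.16, 7.40 and 7.09 in DMSO, 6.95, 7.01 and 6.88 at 1 µM, and 6.99, 7.06 and 7.08 at 3 µM, a difference of −0.23 (95% interval −0.41 to −0.045). HK2, a hexokinase of the same list, was at 0.19 (95% interval 0.0024 to 0.38), and at −0.076 by another probe set. Of 10 insulin and FOXO genes 5 were above (median 0.006), with SGK1 at −0.11. Of 11 immediate early genes 7 were above (median 0.030), with EGR1 at 0.11. Of 11 Wnt and YAP targets 2 were above (median −0.018), with DKK1, a secreted Wnt inhibitor, at −0.060. Of 16 genes of steroid hormone metabolism 4 were above (median −0.033), with CYP24A1, the vitamin D hydroxylase, at 0.17 (95% interval −0.075 to 0.41). Of 9 interferon genes 3 were above (median −0.11), and 6 of the 9 had mean signals under 4. OAS1 was at 0.40 (95% interval 0.045 to 0.75) and ISG15 at −0.14 (95% interval −0.28 to −0.0028). Another probe set of OAS1 gave −0.16 ± 0.11, so this gene's direction differed between its probe sets.

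Among all genes, the 6 treated arrays lay above all 3 DMSO arrays for 134 (0.678%) and below them for 270 (1.37%). The 10 highest of these with a mean log2 signal of at least 5 were HMGCS1, SNRNP35, ZC3H18, NSDHL, PTPN18, CCDC183, ZNF516, BIRC2, ERG28 and TRAF4, with pooled differences from 0.17 to 0.37. Of these 10, HMGCS1 and NSDHL were on the sterol list, and ERG28, of sterol demethylation, was not. On that list 3 of 17 genes (17.6%) had all treated arrays above DMSO, beside the 0.678% of all genes. The list was chosen with earlier results known, so these shares are a description. The 10 lowest were ZSCAN25, VPS37B, LZTR1, DEDD2, KCTD1, MAP4K3-DT, HEXD, SPTAN1, NPTXR and STARD13, with differences from −0.24 to −0.42. ZSCAN25, a zinc finger protein, was the lowest of them: 6.54, 6.38 and 6.21 in DMSO, 6.01, 6.10 and 5.91 at 1 µM, and 5.97, 5.86 and 5.86 at 3 µM, a difference of −0.42 ± 0.10 (95% interval −0.63 to −0.21). Its other probe sets gave −0.15 and −0.01. VPS37B, an ESCRT-I subunit, had 5.44, 5.39 and 5.35 in DMSO, 5.02, 4.91 and 4.83 at 1 µM, and 5.07, 5.14 and 5.10 at 3 µM. Other probe sets gave 0.17 and −0.17 for PTPN18, −0.034, −0.093 and 0.11 for TRAF4, and −0.0035 for ZC3H18. They gave −0.02 and 0.11 for HEXD, −0.068 to 0.028 for SPTAN1, and −0.1, −0.045 and 0.023 for KCTD1. For NPTXR another gave −0.0011, for MAP4K3-DT 0.048, and for STARD13 −0.22 and 0.078. These differences were therefore not shared by all probe sets of a gene.

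Many of these 20 genes were also away from DMSO at doses far below 1 µM. SNRNP35, a protein of the minor spliceosome, was 0.29 above DMSO at 1 and 3 µM and between 0.15 and 0.32 above it at each of the 6 lower doses, so that it differed by 0.052 ± 0.057 (SE) from those doses. VPS37B differed by −0.38 from DMSO and by −0.10 ± 0.067 from the lower doses. In contrast, HMGCS1 differed by 0.28 ± 0.059 from the 6 lower doses, NSDHL by 0.22 ± 0.05 and ERG28 by 0.16 ± 0.046. These 3 were the members of the upper 10 with an unadjusted p under 0.05 against the lower doses. Of the lower 10, 7 had one, with ZSCAN25 at −0.20 ± 0.068, HEXD, a hexosaminidase, at −0.20 ± 0.063, and DEDD2 at −0.15 ± 0.051. ZSCAN25 was nonetheless at −0.30, −0.39 and −0.36 from DMSO at 0.03, 0.1 and 0.3 µM. Those values were near its −0.37 at 1 µM, and at 10 µM it was at −0.20. The 20 genes were chosen on the same 6 treated arrays, so their direction against the lower doses and these p values are a description and no independent check.

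Against the 9 arrays of the 3 lowest doses, which share no array with DMSO, 596 genes were higher (3.01%) and 940 lower (4.75%) at an unadjusted p under 0.05. The sterol list had a median of 0.11 there, with 16 of 17 genes above and 9 at that p, all higher. HMGCS1 was at 0.31 ± 0.066 (SE), NSDHL at 0.26 ± 0.056, LSS at 0.20 ± 0.05, IDI1 at 0.17 ± 0.048 and MVD at 0.21 ± 0.076. CYP1A1 was at 0.60 ± 0.14. At these 3 doses CYP1A1 lay between −0.04 and 0.11 from DMSO and HMGCS1 between 0.015 and 0.11. MVD was at 0.036, 0.17 and 0.10 there, so that its value at 0.003 µM was level with its 0.16 at 1 µM.

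**Figure D4:**
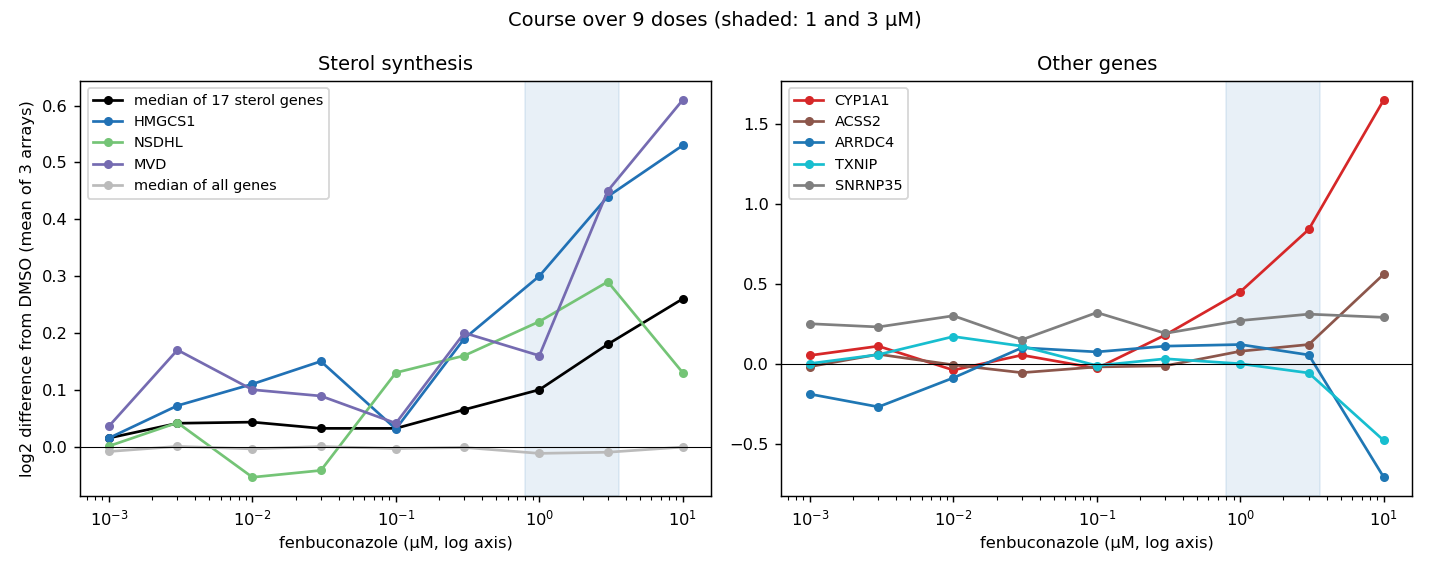
Log2 difference from DMSO (mean of 3 arrays) over the 9 fenbuconazole doses on a log axis, with 1 and 3 µM shaded, for sterol synthesis (left) and other genes (right). The sterol median is at 0.065 at 0.3 µM, 0.10 at 1 µM, 0.18 at 3 µM and 0.26 at 10 µM, CYP1A1 goes from 0.18 to 0.45, 0.84 and 1.65 over the same doses, and ARRDC4 and TXNIP are below −0.4 at 10 µM alone.

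Over the whole dose course, the median of the 17 sterol genes was between 0.015 and 0.065 at the 6 doses under 1 µM, and then 0.10, 0.18 and 0.26 at 1, 3 and 10 µM. HMGCS1 was at 0.19 at 0.3 µM and at 0.30, 0.44 and 0.53 from 1 µM on. Of the 17 genes, 9 were higher at each step from 1 to 3 to 10 µM. The 4 that were lower at 10 than at 3 µM were NSDHL (0.29, then 0.13), MSMO1 (0.26, then 0.14), ACAT2 (0.29, then 0.22) and TM7SF2 (0.18, then 0.15). MVD was at 0.20 at 0.3 µM and 0.16 at 1 µM. CYP1A1 was at 0.18 at 0.3 µM, 0.45 at 1 µM, 0.84 at 3 µM and 1.65 at 10 µM. All of these share the same 3 DMSO arrays.

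At 10 µM against the 3 lowest doses 12 genes were called (0.0607% of all genes), and none of those arrays entered the means of 1 and 3 µM or DMSO, though all 30 arrays shared 1 estimate of the spread. The 8 that were higher at 10 µM were CYP1A1, LPIN1, ACSS2, MVD, HMGCS1, LRP8, LSS and AKR1B10, and all 8 were above DMSO at 1 and 3 µM pooled. CYP1A1, MVD, HMGCS1 and LSS had an unadjusted p under 0.05 there. LRP8, a lipoprotein receptor, was at 0.12 with the doses pooled, and its other probe sets gave −0.12 and 0.19. By dose, LRP8 was at 0.020 at 1 µM and 0.22 at 3 µM (95% interval 0.054 to 0.38 at 3 µM). LPIN1, a phosphatidate phosphatase, was at 0.012 and 0.15, ACSS2, which makes acetyl-CoA from acetate, at 0.078 and 0.12, and AKR1B10, an aldo-keto reductase, at −0.027 and 0.047. The 4 that were lower at 10 µM were TXNIP, ARRDC4, C8B and DKK1. C8B, a complement subunit, was at −0.12 at 1 and 3 µM pooled and DKK1 at −0.060. Of these 4, 3 were below DMSO at 1 and 3 µM pooled, and ARRDC4 was above it. For all 12 genes the value at 3 µM was further in the direction of 10 µM than the value at 1 µM. Of all genes 50.8% were higher at 3 than at 1 µM. Some of the steps were small: from 1 to 3 µM TXNIP went from −7.2e-05 to −0.058 and ARRDC4 from 0.12 to 0.055. The count rested on which arrays were kept: without replicate 1 or without replicate 3 of every dose only CYP1A1 was called, without replicate 2 of every dose 6 genes were, and a fit on the compared groups alone called CYP1A1 and LPIN1.

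**Figure D5:**
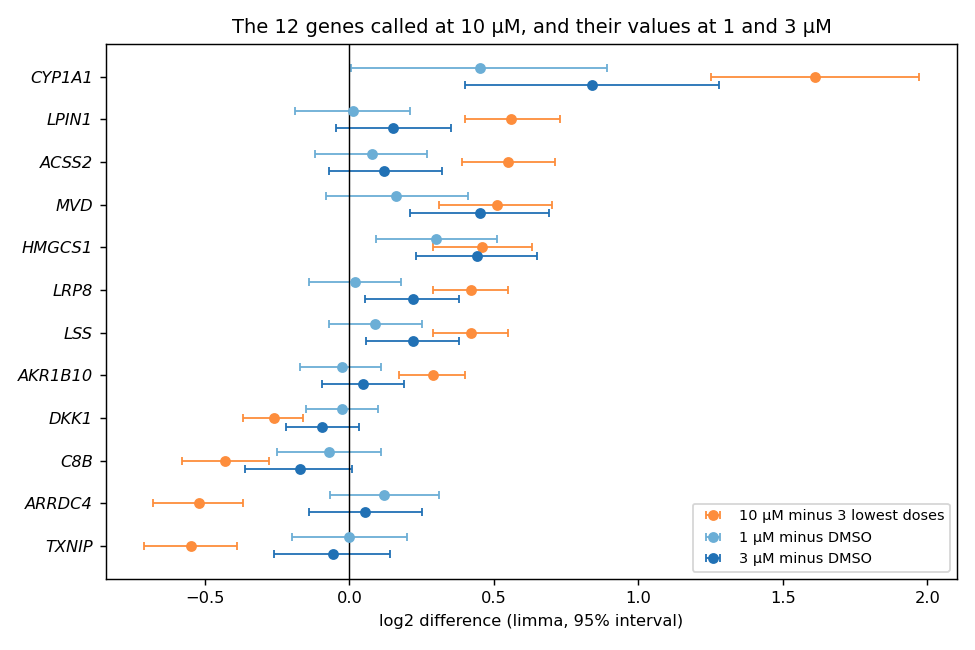
Log2 differences with 95% intervals for the 12 genes called at 10 µM against the 3 lowest doses (orange), and for the same genes at 1 µM and 3 µM against DMSO (light and dark blue). The references differ: at 3 µM against DMSO, MVD is at 0.45 and HMGCS1 at 0.44. At 10 µM they are at 0.51 and 0.46 against the 3 lowest doses, and at 0.61 and 0.53 against DMSO (not drawn). At 3 µM LPIN1 and ACSS2 are at 0.15 and 0.12, and ARRDC4 and TXNIP at 0.055 and −0.058.

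TXNIP and ARRDC4, arrestin-like proteins that restrain glucose uptake and are induced by glucose through MondoA, were near DMSO at 1 and 3 µM. ARRDC4 had 5.85, 5.74 and 5.85 in DMSO, 5.98, 5.98 and 5.84 at 1 µM, 5.88, 5.77 and 5.95 at 3 µM, and 5.17, 5.07 and 5.07 at 10 µM. Its pooled difference was 0.089 (interval −0.077 to 0.26), and the 10 µM arrays lay below all others. TXNIP had 8.66, 8.69 and 8.67 in DMSO, 8.60, 8.72 and 8.71 at 1 µM, 8.50, 8.70 and 8.65 at 3 µM, and 7.96, 8.37 and 8.26 at 10 µM. Its pooled difference was −0.029 (interval −0.20 to 0.14). ARRDC3, a relative on the same list, was at 0.29 with no overlap (95% interval 0.058 to 0.52) but had a mean signal of 3.44, and the list of 6 had a median of −0.006 with 3 genes above DMSO.

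A direct comparison of 10 µM with 1 and 3 µM pooled, added after the dose course had been seen, called 7 genes (0.0354%). ARRDC4 was lower at 10 µM by 0.80 on the log2 scale (limma, adjusted p = 7.14e-06) and TXNIP by 0.45 (adjusted p = 0.0402). ACSS2 was higher by 0.46 ± 0.082, CYP1A1 by 1.01 ± 0.19 (adjusted p = 0.0386), and the aldo-keto reductases AKR1B10, AKR1C1 and AKR1C2 by 0.33, 0.30 and 0.34. AKR1C1 and AKR1C2 are near-identical in sequence, and their probe sets may not tell them apart. They were not higher than DMSO at 1 and 3 µM, where AKR1C1 was at −0.069 and AKR1C2 at −0.085. HMGCS1 was 0.16 higher at 10 µM (interval −0.026 to 0.34, adjusted p = 0.722), MVD 0.30 higher (adjusted p = 0.547) and NSDHL 0.13 lower (adjusted p = 0.731), so a difference between 10 µM and the lower pair of doses was not shown for them. Leaving out single arrays of DMSO, 1 µM or 3 µM moved the count of 7 to between 1 and 8, and single arrays at 10 µM were not left out. ARRDC4 alone passed without replicate 1 or 2 at 1 µM, without replicate 1 or 2 at 3 µM, without replicate 2 of every dose, after joint quantile normalization and in a fit on the compared groups, and 0 genes passed without replicate 1 of every dose. Without DMSO replicate 3, 3 passed, without replicate 3 of every dose 3, and without replicate 3 at 3 µM 2, ARRDC4 among them each time.

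At the matched doses of 1 and 3 µM, fenbuconazole was set against the imidazole fungicide imazalil and the chlorophenoxy herbicide 2,4-D. Values were taken relative to each set's own DMSO columns, which are the same 3 control arrays normalized again. Imazalil raised CYP1A1 by more: its log2 signal was 4.37, 4.85 and 4.63 in DMSO, 5.74, 5.58 and 5.99 at 1 µM, and 6.55, 6.22 and 6.85 at 3 µM. That was 1.15 and 1.93 above DMSO, against 0.45 and 0.84 with fenbuconazole. The difference between the azoles was −0.89 ± 0.16 (limma, adjusted p = 0.0113), and 2 genes passed (0.0101%). Each 1 µM imazalil array lay above each 1 µM fenbuconazole array, and the same held at 3 µM.

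The other called gene was LINC01111, a long noncoding RNA, at 0.45 ± 0.071 (limma, adjusted p = 0.00318). Its signal was dim. It was 2.76 to 3.07 in DMSO and 3.00 to 3.30 at 1 and 3 µM with fenbuconazole, and 2.92 to 3.37 in DMSO and 2.78 to 3.04 with imazalil. The same 3 DMSO arrays averaged 2.95 when normalized with fenbuconazole and 3.16 when normalized with imazalil. Without replicate 1 or without replicate 2 of every group 0 genes passed against imazalil, and without replicate 3, or with genes of a mean signal under 4 left out, CYP1A1 alone passed. Over the sterol list the difference from imazalil had a median of 0.16, with 16 of 17 genes higher with fenbuconazole, beside −0.010 for all genes. HMGCS1 was at 0.18 and 0.16 above DMSO with imazalil at 1 and 3 µM, and the difference of 0.21 did not pass (adjusted p = 0.44).

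Against 2,4-D 0 genes were called (0.0%), with 1166 at an unadjusted p under 0.05. CYP1A1 was at −0.018 and 0.10 with 2,4-D at 1 and 3 µM. It was 0.60 ± 0.12 higher with fenbuconazole (limma, adjusted p = 0.202). HMGCS1 was at 0.11 and 0.030 with 2,4-D and 0.30 ± 0.081 higher with fenbuconazole (adjusted p = 0.577). The median difference over the sterol list was 0.17, with 16 of 17 genes higher, beside −0.008 for all genes. A p value that misses the threshold does not show that the compounds act alike.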

How the data were processed

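RNA of HepG2 cells was hybridised to HT HG-U133+ PM arrays (Affymetrix). The deposited unit is the log2 intensity of a probe set, which the authors normalized by RMA within each compound's set of 27 treated columns and 3 DMSO columns. The submitters' processing notes name RMA and Partek, and versions and genome build are not given in the sources used here. Of 54715 probe sets, 102 were controls, 40914 had 1 symbol, 864 several and 12835 none in the gene table. Each of 19774 genes was represented by its brightest probe set (by the mean of the 90 columns), and 10550 genes had more than 1. Where the text gives other probe sets, their values are named as such.

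The 30 fenbuconazole columns were fitted with lmFit and eBayes (R 4.3.3, limma 3.58.1, statmod 1.5.0), with 1 mean per group and no block. P values are two-sided and adjusted over all 19774 genes by Benjamini-Hochberg, with a threshold of 0.05. A fold is 2 to the power of the log2 difference. Compounds were compared in a fit on the 54 treated columns of 2 sets after subtracting each set's DMSO mean. The number of arrays, 3 a group, limits the precision. Fits were tested on simulated data.

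The members, the 23 lists (302 entries, 276 measured) and the naming rule were chosen with earlier results of these data known. Genes named were any that passed, up to 10 each way among genes with non-overlapping arrays and a mean of at least 5, those called at 10 µM, up to 4 members per list with the smallest p (those with an unadjusted p under 0.05, or otherwise the first), up to 5 each way per compound comparison, and CYP51A1, CYP1A1, HMGCS1, CYP3A4, CYP2B6, TXNIP, ARRDC4, PDK4 and HMOX1. All sterol list genes, those called between 10 µM and the lower pair, ERG28's other probe sets and the sister members of the AHR list were named beyond the rule, after their values were seen. Some listed genes were not analysed here. Alternatives were the groups compared alone, a replicate block, covariates for array spread and GAPDH 3' minus 5' signal, joint quantile normalization, dim genes left out, a trended robust variance, all probe sets, means of probe sets, each replicate left out, and the 6 doses under 1 µM in place of DMSO. Promoter windows came from RefSeq (GRCh38.p14).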

Additional observations from a re-analysis of the deposited data

Results flagged for a closer look

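Between 10 µM and the 2 lower doses, or between fenbuconazole and imazalil, the test of the difference itself was passed by 8 genes. With 1 and 3 µM pooled, the log2 difference was 1.01 for CYP1A1, 0.46 for ACSS2, 0.33 for AKR1B10, 0.30 for AKR1C1, 0.34 for AKR1C2, −0.80 for ARRDC4 and −0.45 for TXNIP. Between fenbuconazole and imazalil at 1 and 3 µM it was −0.89 for CYP1A1 and 0.45 for LINC01111. Each compound and dose had 3 arrays, too few to test single arrays for standing apart.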

How the results depend on the processing

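For 1 and 3 µM pooled, 1 µM, 3 µM, and 3 against 1 µM, the count of called genes was 0 under every alternative run. CYP1A1 stayed between 0.49 and 0.80 when arrays were left out and the median of the sterol list between 0.11 and 0.16, and 11 of 72 named genes, 0 of them past the threshold, changed sign in some setting. Against the 3 lowest doses the count was 1 with the replicate block (CYP1A1, limma, adjusted p = 0.0223), 1 with the mean of probe sets (HMGCS1, adjusted p = 0.0271) and 0 to 1 with arrays left out (TIAM2 without replicate 2). Against imazalil it was 4 with the mean of probe sets (LINC01111, CYP1A1, LSS and HMGCS1), 1 with dim genes left out and 0 to 1 with replicates left out. Against 2,4-D it was 2 with the mean of probe sets (ZNF135 and HMGCS1) and 1 with the replicate block (CYP1A1, adjusted p = 0.00714).

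At 10 µM against the 3 lowest doses the 12 calls became 2 with only the groups compared, 22 with the interquartile range as covariate, 30 with dim genes left out, 21 with the trended robust variance and 1 to 13 with arrays left out. At 10 µM against 1 and 3 µM, the 7 became 1, 11 and 14 under the first 3 of these settings, 1 after joint quantile normalization and 0 to 8 with arrays left out. Replicates were left out of every dose at once, and single arrays only of DMSO, 1 µM and 3 µM. These alternatives were added after the data were seen. Of the 12 genes, 10 or 11 kept their direction at 1 and 3 µM in every alternative. The causes of these changes were not tested, other than that fewer genes or arrays entered some of them.

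Among single genes, the sign changed against the 6 doses under 1 µM for AKR1B10 (−0.015), HSPB1 (−0.02), BBC3 (0.032), ISG15 (0.034), CYP2B6 (−0.03) and PDK4 (0.0035). It changed with the mean of probe sets for TXNIP (0.012) and PDK4 (0.032), and after joint quantile normalization for PDK4 (0.0047). With arrays left out the range held both signs for AKR1B10 (−0.011 to 0.031), TXNIP (−0.05 to 0.012), EGR1 (−0.011 to 0.18), CYP2B6 (−0.13 to 0.2), PDK4 (−0.09 to 0.078), PMVK (−0.17 to 0.034), TM7SF2 (−0.0044 to 0.19) and DHCR7 (−0.011 to 0.15). The mean of probe sets put IDI1 at 0.017.

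The arrays share replicate numbers, which equal a plate code in the labels whose meaning is not stated. For equal numbers the correlation of deviations was 0.142 to 0.269 between DMSO and 3 µM, where each array correlated best with its own number, but −0.163 to 0.176 between DMSO and 1 µM and −0.167 to 0.075 between the doses, so the numbers were not taken to pair the arrays. With the replicate block CYP1A1 was at 0.64 (adjusted p = 0.551) and 0 genes were called at 1 and 3 µM, 2 against imazalil, 16 at 10 µM against the lowest doses and 10 at 10 µM against 1 and 3 µM. Signal limits what can be seen: 10005 of 19774 genes had a mean log2 signal under 4, and with 3 arrays a group a pooled difference under 0.21 lay within the 95% interval of the median gene.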
